A study of Homo sapiens with 6 samples.

Results

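The genes described here are 45 genes of the NRF2 response, the glutathione system and the thioredoxin system, taken by symbol from the 27470 genes of the count table. All 45 symbols were found. Of these, 39 passed the filter on low counts and were tested, and 6 did not (GPX2, GPX3, GSTP1, AKR1B10, AKR1C1 and ABCC3). The cells were 22Rv1-ABHD5, derived from 22Rv1, a castration-resistant prostate cancer line of human origin, by infection with a lentiviral vector carrying ABHD5 behind a doxycycline (Dox)-inducible promoter and selection with G418. Both conditions carry this vector. The 3 libraries labelled control came from cells grown without Dox and the 3 labelled OE from cells with Dox, each for 48 h, and RNA was read from the 3ʹ end of each transcript. Since parent 22Rv1 cells given Dox were not analysed here, an effect of Dox and one of ABHD5 cannot be told apart. The Dox dose and the relation between replicates are not given for these libraries, so p-values measure the spread between them, which may be technical.

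NRF2, encoded by NFE2L2, is a transcription factor that is held in the cytoplasm and handed to degradation by KEAP1, a sensor whose cysteines react with oxidants and electrophiles. When KEAP1 is modified, NRF2 accumulates, pairs with small MAF proteins such as MAFG and binds the antioxidant response element, a short DNA motif near many detoxification genes. BACH1 competes for the same motif as a repressor and is released from it by heme. Downstream, glutathione made by the GCL and GSS enzymes feeds peroxidases and transferases, while thioredoxin and its reductase feed peroxiredoxins. The control of NRF2 acts mainly on the protein, which RNA counts do not measure.

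Library totals ranged from 3394672 to 7271771 counts on genes, and levels below are CPM, a gene's counts in every 1000000 counts of its library after TMM scaling. CPM is a share of the RNA, so that fewer cells expressing a gene and less of its RNA per cell cannot be told apart. ABHD5 was at 63.5, 58.0 and 62.8 CPM without Dox and 126, 131 and 91.7 CPM with Dox, which matches the labels. All 12 markers of luminal prostate cells were counted in every library. Their summed level was 1870 to 1978 CPM without Dox and 1225 to 1371 with Dox, with 7 of 12 lower in the edgeR test, and the part of this fall in the results below was not tested. Of 6 immune and 6 stromal or endothelial markers, 4 and 4 were at 3 counts or fewer in every library, and the summed level of either set did not exceed 7.62 CPM. The T cell marker CD3E and the stromal and endothelial markers PDGFRB, PECAM1 and CDH5 had 0 counts in every library, while COL1A1, a stromal collagen, passed the test as higher with Dox. Reads on no gene made up 32.5% to 34.6% of those listed without Dox and 35.6% to 39.5% with Dox, and the part of this shift in the results was not tested.

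In the 80 bases before the start site, 5 of the 34 genes with a RefSeq window (14.7%) held a whole match to the core of the antioxidant response element, searched as TGACNNNGC on both strands, against 5.2% of all genes with a window. One of the 5, GSTP1, was not tested, and in TXNRD1, which did not pass the test, a match runs across the start site. The other 4 genes are shown because 2 of them rose (AIFM2 and GSTA4) and 2 fell (GCLM and KEAP1). Each is given 5ʹ to 3ʹ along the gene, with the matches in capitals, from RefSeq on GRCh38.p14. All 4 genes lie on the minus strand.
AIFM2 (chr10:70132826-70132905): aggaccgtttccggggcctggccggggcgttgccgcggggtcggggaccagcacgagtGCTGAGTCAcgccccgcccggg
GSTA4 (chr6:52995285-52995364): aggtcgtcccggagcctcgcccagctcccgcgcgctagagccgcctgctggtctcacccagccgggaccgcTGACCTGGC
GCLM (chr1:93909431-93909510): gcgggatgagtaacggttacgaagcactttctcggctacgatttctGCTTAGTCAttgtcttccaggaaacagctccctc
KEAP1 (chr19:10502772-10502851): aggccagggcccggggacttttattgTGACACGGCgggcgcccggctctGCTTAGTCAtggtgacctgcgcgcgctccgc
AIFM2, GCLM and the second match of KEAP1 carry the motif on the opposite strand, and that of AIFM2 also spells the AP-1 motif TGACTCA when read on that strand. RefSeq windows of 300 bases were matched for 34 of the 45 genes, and 9 of the 34 (26.5%) held the motif in at least 1 window, against 16.1% of all genes with a window. Of these 9 genes, 2 rose, 2 fell, 3 did not pass the test and 2 were not tested. Over all genes tested, 11.9% rose and 13.7% fell, and over the 39 tested genes of the list 17.9% rose and 17.9% fell. The few genes with the motif were not tested against these shares. KEAP1 has another start site, whose 80 bases hold no match. A match describes letters and not a bound site, and the 300-base windows do not reach distal elements.

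With Dox, 14 of the 39 tested genes changed at an adjusted p under 0.05 (edgeR's quasi-likelihood test, Benjamini-Hochberg adjustment over all 12233 genes tested), against 25.5% of all tested genes. BACH1, AIFM2, GPX8, GSTA4, NQO1, GSTK1 and GCLC rose, and HMOX1, MGST2, GCLM, SRXN1, KEAP1, PRDX5 and GSR fell. The 7 rises were 17.9% of the tested genes against 11.9% over all genes, and the 7 falls were 17.9% against 13.7%. Scaled by library totals alone, 7 of the genes rose and 4 fell, and over all genes 2179 rose and 1136 fell in place of 1451 and 1674. The median log2 fold change was -0.0061 over the 39 genes and 0.016 over all genes tested. BACH1 and AIFM2 were the 2 of 39 that were called with a change of at least 2-fold, against 7.55% of all genes. In 8 genes every library with Dox lay above every library without Dox, and in 7 every one lay below, against 19.0% and 20.5% of all genes. Single roles hold 2 to 7 tested genes, and their counts below were not tested against the share of all genes. The plot of log2 fold changes by role shows these changes role by role.

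**Figure D1:**
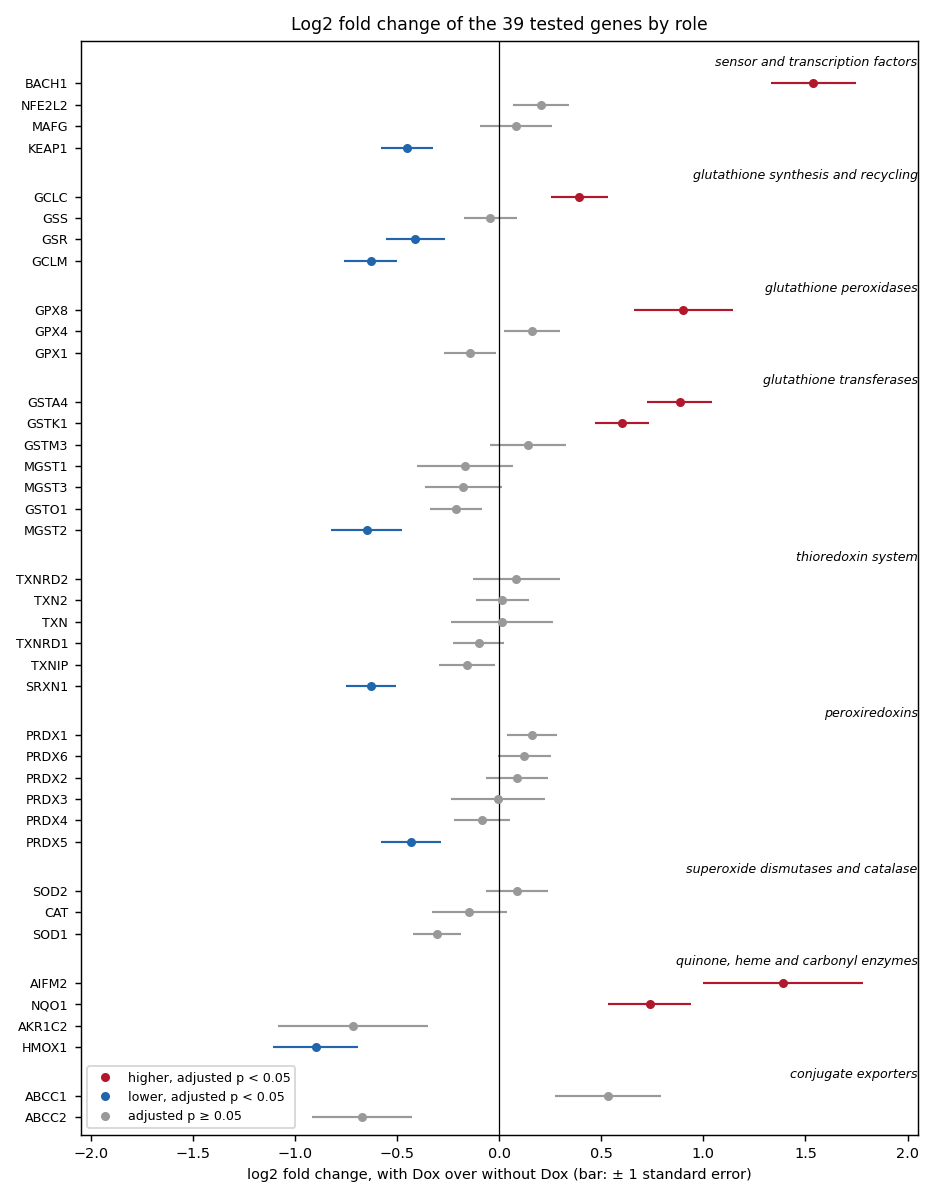
Log2 fold change with Dox over without Dox (x axis) of the 39 tested genes, grouped by role, with bars of 1 standard error. Red and blue points are the 7 rises and 7 falls at an adjusted p under 0.05 (edgeR), and the largest rise is that of BACH1, at 1.54.

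Among the regulators, the 2 genes that restrain NRF2 moved in opposite directions. BACH1, the repressor of antioxidant response elements (chromosome 21 of hg38, 29194071 to 29630751), was at 18.3, 12.7 and 14.1 CPM in replicates 1, 2 and 3 without Dox and at 48.1, 52.9 and 32.0 with Dox. The lowest library with Dox exceeded the highest one without Dox. The log2 fold change was 1.54 ± 0.21 (SE, edgeR adjusted p = 3.47e-05). KEAP1, the sensor that targets NRF2 for degradation (chromosome 19, 10486125 to 10503558), was at 91.9, 89.6 and 94.96 CPM without Dox and at 70.5, 61.2 and 69.9 with Dox. Its libraries did not overlap, and the log2 fold change was -0.45 ± 0.13 (SE, edgeR adjusted p = 0.0138). Scaled by library totals alone, a setting that raised the median of all genes by 0.12 on the log2 scale, KEAP1 was at -0.33 and lost its call (adjusted p = 0.0600, edgeR). NFE2L2, which encodes NRF2 itself, was at 63.5, 56.8 and 58.1 CPM without Dox and at 61.5, 77.4 and 67.3 with Dox. These values overlapped, and the log2 fold change of 0.21 ± 0.14 (SE) did not pass the test (adjusted p = 0.300, edgeR). MAFG, the small MAF partner of NRF2, had a log2 fold change of 0.08 with an adjusted p of 0.775 (edgeR) and turned to -0.10 when replicate 2 without Dox was left out.

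Ratios of 2 genes' counts within a library do not depend on how libraries are scaled. These pairs were chosen after the values were seen, and the absolute ratio also depends on how well each 3ʹ end is captured. BACH1 to NFE2L2 was 0.288, 0.224 and 0.243 without Dox and 0.781, 0.683 and 0.477 with Dox, a change of 2.53-fold. NFE2L2 to KEAP1 was 0.690, 0.633 and 0.612 without Dox and 0.873, 1.26 and 0.962 with Dox, a change of 1.58-fold. Neither ratio overlapped between conditions. Each had p = 0.1 in the exact two-sided permutation test, the smallest that 3 against 3 libraries allow. BACH1 alone and KEAP1 alone already separated the conditions, and NFE2L2 varied too little between libraries to undo this. This p was therefore fixed beforehand and adds no support.

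Glutathione synthesis begins with glutamate-cysteine ligase, made of a catalytic subunit (GCLC) and a modifier subunit (GCLM), and their RNAs moved apart. GCLC (chromosome 6, 53497341 to 53616970) was at 37.6, 37.8 and 35.3 CPM without Dox and at 47.4, 47.6 and 49.9 with Dox. GCLM (chromosome 1, 93885199 to 93909456) was at 79.9, 72.9 and 82.6 CPM without Dox and at 50.02, 53.2 and 49.4 with Dox. For both genes the conditions were separate and the replicates close to each other. The log2 fold change was 0.39 ± 0.14 for GCLC (SE, edgeR adjusted p = 0.0493) and -0.63 ± 0.13 for GCLM (SE, edgeR adjusted p = 0.00176). GCLM kept its call in each of 14 alternative fits. GCLC stood close to the threshold and kept its call in 5 of 14, with a log2 fold change between 0.36 and 0.51 over all 14, and it lost its call whichever single library was left out. The ratio of GCLC to GCLM counts was 0.471, 0.519 and 0.427 without Dox and 0.948, 0.895 and 1.01 with Dox, a change of 2.02-fold (exact permutation test, two-sided, p = 0.1, the smallest possible). This pair was also chosen after its values were seen. Each gene alone already separated the conditions, in opposite directions, so this p was fixed beforehand and adds no support.

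Of the next 2 enzymes of the glutathione cycle, GSR fell and GSS did not pass the test. GSS, glutathione synthetase, was at 129, 145 and 110 CPM without Dox and 120, 130 and 122 with Dox, with a log2 fold change of -0.04 (adjusted p = 0.840, edgeR) that turned positive in 3 alternatives. GSR, the reductase that returns oxidized glutathione to its reduced form (chromosome 8, 30678066 to 30727846), was at 381, 289 and 396 CPM without Dox and 298, 225 and 280 with Dox. Its conditions overlapped, since replicate 1 with Dox stood above replicate 2 without Dox. The log2 fold change was -0.41 ± 0.15 (SE, edgeR adjusted p = 0.0462). GSR kept its call in 6 of 14 alternatives. Among others, it lost it under library totals alone (-0.29) and without replicate 1 or 3 without Dox or replicate 1 or 2 with Dox, with values from -0.50 to -0.30.

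**Figure D2:**
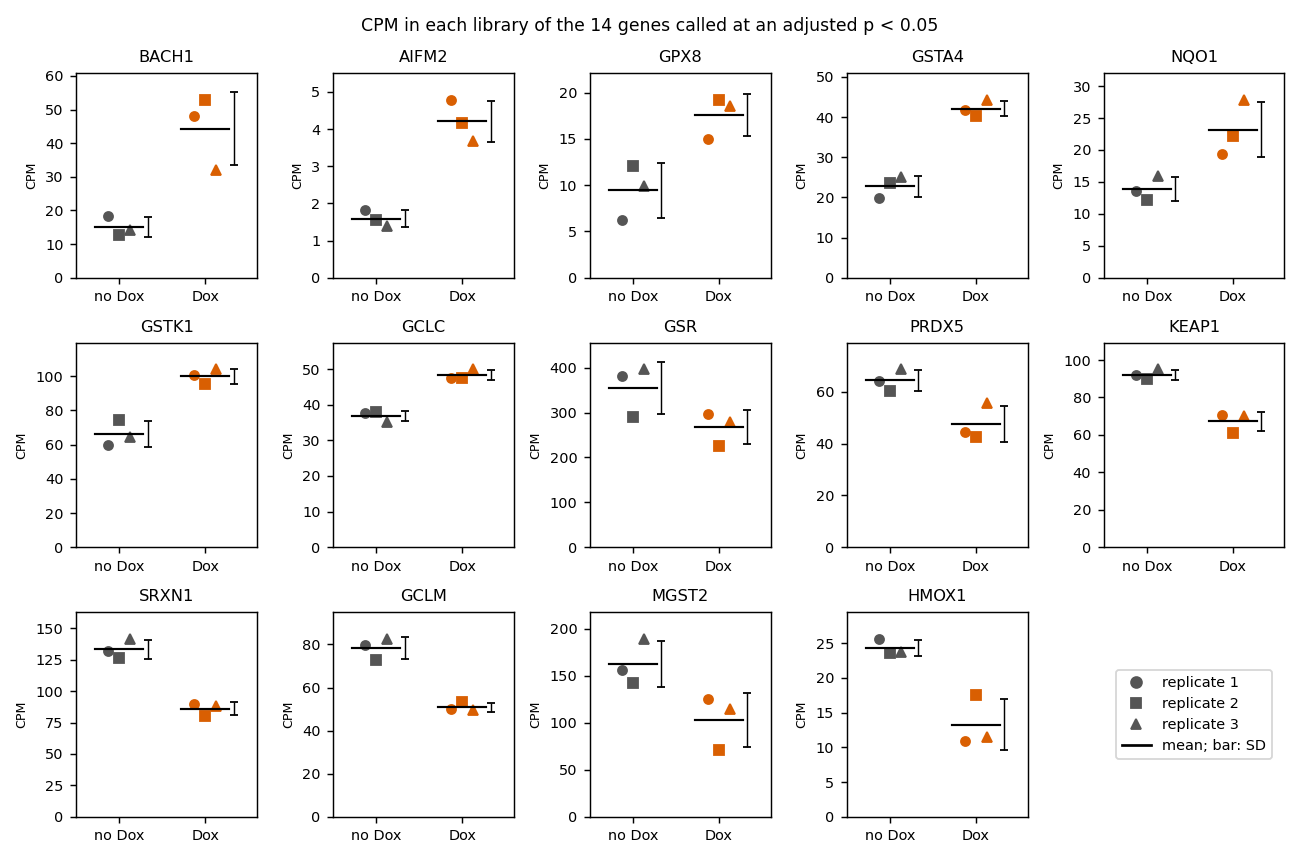
CPM in each library (y axis from 0, points) of the 14 genes with an adjusted p under 0.05 (edgeR), in the order of their log2 fold change, without Dox (grey) and with Dox (orange). Lines are means and bars the SD of 3 replicates, and only GSR has libraries that overlap between conditions.

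Of the glutathione peroxidases, GPX8 rose and GPX4 and GPX1 did not pass the test. GPX8, a peroxidase of the endoplasmic reticulum (chromosome 5, 55160167 to 55167297), was at 6.27, 12.1 and 9.95 CPM without Dox and at 15.005, 19.2 and 18.5 with Dox. The groups did not overlap, and the log2 fold change was 0.90 ± 0.24 (SE, edgeR adjusted p = 0.0108). It fell to 0.67 without replicate 1 without Dox and lost its call there (adjusted p = 0.0763, edgeR). GPX4, the selenoenzyme that reduces lipid hydroperoxides in membranes, was at 488, 437 and 412 CPM without Dox and at 470, 431 and 591 with Dox. Replicate 3 with Dox stood above the other 5 libraries, which overlapped between conditions, and the log2 fold change was 0.16 ± 0.14 (SE, edgeR adjusted p = 0.433). GPX1, the cytosolic peroxidase, had -0.14 (adjusted p = 0.442, edgeR). GPX2 had 0 to 7 counts per library. GPX3, the secreted peroxidase, had 2, 1 and 10 counts without Dox and 12, 6 and 21 with Dox, too few for the filter, and it was tested and called when replicate 3 without Dox was left out.

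Of the 7 tested transferases, which join glutathione to electrophiles, 2 rose and 1 fell. GSTA4, which conjugates the lipid peroxidation product 4-hydroxynonenal (chromosome 6, 52977948 to 52995304), was at 19.9, 23.6 and 25.0 CPM without Dox and 41.8, 40.4 and 44.3 with Dox. GSTK1, the mitochondrial and peroxisomal transferase (chromosome 7, 143244093 to 143270854), was at 59.6, 74.1 and 64.6 CPM without Dox and 100, 95.2 and 104 with Dox. Both were higher in every library with Dox. The log2 fold changes were 0.88 ± 0.16 (SE, edgeR adjusted p = 5.25e-04) and 0.60 ± 0.13 (SE, edgeR adjusted p = 0.00257), and both calls held in each of 14 alternatives. MGST2, a membrane-bound transferase that can also make leukotriene C4 (chromosome 4, 139665768 to 139740745), was at 156, 142 and 189 CPM without Dox and 125, 70.7 and 114 with Dox. It was lower in every library with Dox, with a log2 fold change of -0.65 ± 0.17 (SE, edgeR adjusted p = 0.0107), which was -0.53 without replicate 3 without Dox (adjusted p = 0.0528, edgeR). The other membrane-bound transferases, MGST1 and MGST3, had -0.17 and -0.18, and the cytosolic GSTO1 and GSTM3 had -0.21 and 0.14, all with an adjusted p of 0.251 or more (edgeR). GSTP1, an abundant transferase in many tissues, had at most 3 counts in each of the 6 libraries, at the limit of detection, so no fold is given.

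In the thioredoxin system 1 of 6 genes passed the test (16.7%, against 25.5% of all genes tested), and it was SRXN1. Sulfiredoxin, its product, reduces overoxidized peroxiredoxins. SRXN1 (chromosome 20, 646615 to 653200) was at 132, 126 and 142 CPM without Dox and at 89.8, 80.1 and 88.4 with Dox. The groups were well apart, and the log2 fold change was -0.63 ± 0.12 (SE, edgeR adjusted p = 0.00108), with a call in each of 14 alternatives. TXN, thioredoxin, was at 209, 144 and 303 CPM without Dox and at 231, 127 and 303 with Dox. The replicates of each condition were spread over more than the difference between conditions, and the log2 fold change was 0.01 ± 0.25 (SE, edgeR adjusted p = 0.976). TXNRD1, the cytosolic thioredoxin reductase, was at 274, 288 and 304 CPM without Dox and 294, 281 and 234 with Dox, with a log2 fold change of -0.10 ± 0.13 (SE, edgeR adjusted p = 0.604). TXNIP, which binds and inhibits thioredoxin and responds to glucose, was at 275, 217 and 265 CPM without Dox and 255, 228 and 196 with Dox. Its conditions overlapped, and the log2 fold change was -0.16 ± 0.14 (SE, edgeR adjusted p = 0.429). The mitochondrial pair TXN2 and TXNRD2 had 0.01 and 0.08 (adjusted p = 0.951 and 0.817, edgeR). TXNRD2 rested on replicate 3 with Dox, at 39.5 CPM against 19.8 to 28.5 in the others, and was -0.28 without it.

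Of the peroxiredoxins, peroxidases most of which thioredoxin reduces, PRDX5 fell and the other 5 did not pass the test. PRDX5, found in mitochondria, peroxisomes and cytosol (chromosome 11, 64318121 to 64321811), was at 64.3, 60.5 and 68.6 CPM without Dox and at 44.4, 42.6 and 55.6 with Dox. The groups did not overlap, and the log2 fold change was -0.43 ± 0.15 (SE, edgeR adjusted p = 0.0366). The call held in 7 of 14 alternatives and was lost, among others, without replicate 1 or 3 without Dox and without replicate 1 or 2 with Dox. PRDX1, the abundant cytosolic form, was at 118, 107 and 120 CPM without Dox and at 121, 128 and 137 with Dox. Every library with Dox lay above, but by little, and the log2 fold change of 0.16 ± 0.12 (SE) did not pass (adjusted p = 0.373, edgeR). PRDX2, PRDX3, PRDX4 and PRDX6 had log2 fold changes from -0.09 to 0.12. The ratio of SRXN1 to PRDX1 counts was 1.12, 1.18 and 1.18 without Dox and 0.741, 0.627 and 0.645 with Dox. This was a change to 0.578 of its value (exact permutation test, two-sided, p = 0.1, the smallest possible), for a pair chosen after its values were seen. Since SRXN1 alone lay below and PRDX1 above in every library with Dox, the test could give no other p. TXNIP to TXN, also chosen after its values were seen, was 1.32, 1.51 and 0.875 without Dox and 1.10, 1.79 and 0.647 with Dox (p = 0.8, same exact test). That ratio overlapped between conditions.

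**Figure D3:**
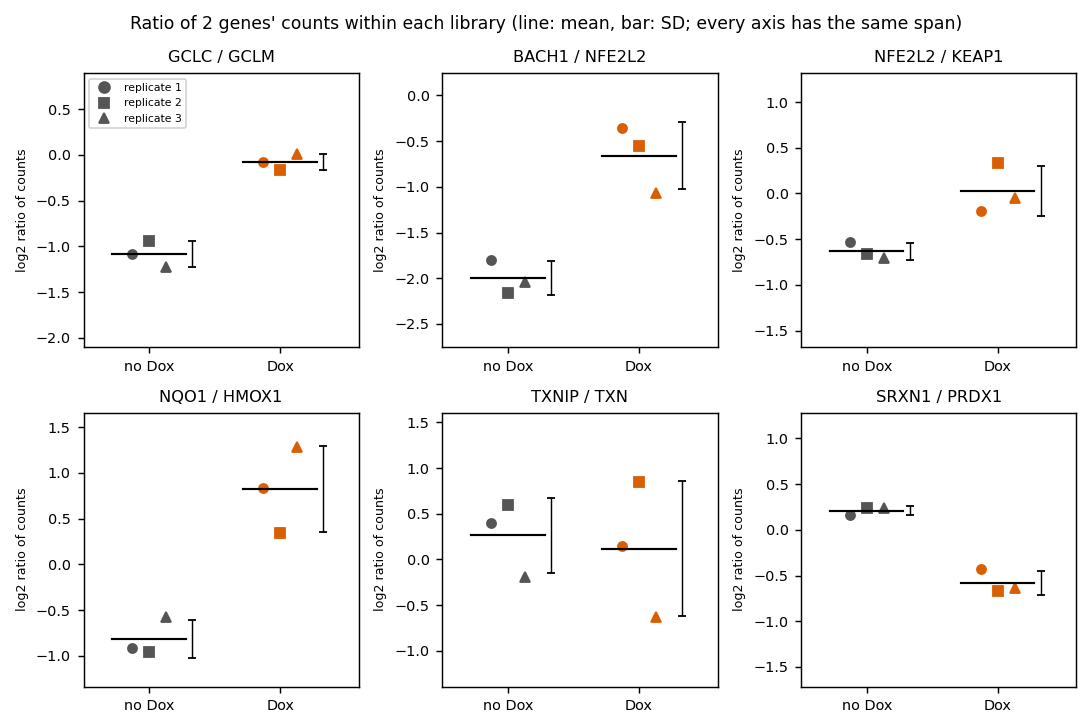
Log2 ratio of 2 genes' counts (y axis, with the same span in every panel) in each library without Dox (grey) and with Dox (orange), with lines for means and bars for the SD of 3 replicates. The 2 conditions are separate for 5 of the 6 pairs and overlap for TXNIP to TXN. Pairs were chosen after their values were seen. For GCLC to GCLM, NQO1 to HMOX1 and SRXN1 to PRDX1, each gene alone already separated the conditions, so the ratio had to. For the pairs with NFE2L2, BACH1 or KEAP1 alone did so. NFE2L2 varied too little to undo it, so these ratios had to separate as well.

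None of the superoxide dismutases and catalase passed the test in edgeR at the adjusted threshold. SOD1, the cytosolic dismutase, was at 398, 405 and 419 CPM without Dox and at 314, 343 and 331 with Dox. All libraries with Dox were lower, by a log2 fold change of -0.31 ± 0.12 (SE) that missed the threshold (adjusted p = 0.0655, edgeR) and passed it in DESeq2 (adjusted p = 0.0316). At an unadjusted p under 0.05, SOD1 was the 1 of these 3 genes that passed in edgeR. SOD2, the mitochondrial form, and CAT, the peroxisomal catalase, had 0.09 and -0.15 (adjusted p = 0.723 and 0.602, edgeR).

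Among the quinone, heme and carbonyl enzymes, NQO1 and HMOX1, both textbook targets of NRF2, moved in opposite directions. NQO1, a quinone reductase (chromosome 16, 69706996 to 69726668), was at 13.6, 12.1 and 15.9 CPM without Dox and at 19.4, 22.3 and 27.8 with Dox. HMOX1, the inducible heme oxygenase (chromosome 22, 35380361 to 35394214), was at 25.6, 23.6 and 23.7 CPM without Dox and at 10.9, 17.5 and 11.4 with Dox. Neither gene overlapped between conditions. The log2 fold change was 0.74 ± 0.20 for NQO1 (SE, edgeR adjusted p = 0.0132) and -0.90 ± 0.21 for HMOX1 (SE, edgeR adjusted p = 0.00417). HMOX1 kept its call in each of 14 alternatives. NQO1 lost it without replicate 1 or 2 without Dox or replicate 3 with Dox (adjusted p = 0.0553, 0.0512 and 0.0733, edgeR), with log2 fold changes of 0.70, 0.65 and 0.56. The ratio of NQO1 to HMOX1 counts was 0.531, 0.513 and 0.669 without Dox and 1.78, 1.27 and 2.44 with Dox. This was a change of 3.12-fold (exact permutation test, two-sided, p = 0.1, the smallest possible), again for a pair chosen after its values were seen. Since NQO1 alone lay above and HMOX1 below in every library with Dox, the test could give no other p.

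AIFM2, known as FSP1, which reduces ubiquinone at membranes and restrains lipid peroxidation (chromosome 10, 70098223 to 70132934), had 7, 5 and 8 counts without Dox and 22, 15 and 28 with Dox. In CPM these were 1.83, 1.55 and 1.40 against 4.78, 4.17 and 3.68. Every library with Dox was higher, with a log2 fold change of 1.39 ± 0.39 (SE, edgeR adjusted p = 0.0147). Its low counts limit the precision, and the call was lost in DESeq2 (adjusted p = 0.0746) and without replicate 2 or 3 without Dox or replicate 1 with Dox (1.38, 1.28 and 1.29, edgeR). AKR1C1 and AKR1C2, aldo-keto reductases that act on steroids and lipid aldehydes, lie side by side on chromosome 10 and are similar in sequence, so that reads could be split between them. AKR1C2 had 19, 18 and 46 counts without Dox and 10, 11 and 43 with Dox, and its log2 fold change of -0.72 ± 0.37 (SE) did not pass (adjusted p = 0.167, edgeR). Replicate 3 was the highest library with Dox, and the value was -1.29 with a call when that library was left out (adjusted p = 0.0264, edgeR), against -0.87 to -0.46 with any other library left out. AKR1C1 had 7, 3 and 11 counts without Dox and 1, 0 and 7 with Dox and was not tested. AKR1B10 had 0 counts in every library.

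The exporters of glutathione conjugates gave no call. ABCC1 had a log2 fold change of 0.53 (adjusted p = 0.144, edgeR), and its libraries overlapped. It was 0.73 with a call when replicate 2 with Dox was left out (adjusted p = 0.0341, edgeR). ABCC2 was at 23.2, 16.7 and 14.5 CPM without Dox and 9.35, 15.3 and 9.98 with Dox. Its log2 fold change of -0.67 ± 0.25 (SE) was next to the threshold (adjusted p = 0.0535, edgeR) and passed it in 4 of 14 alternatives. ABCC3 had 2 counts in replicate 2 with Dox and 0 elsewhere.

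Several of the genes varied with the replicate number in both conditions, and PRDX5 was the 1 of them that also passed the test for Dox. In MGST1, MGST3, TXN, PRDX3, PRDX4, PRDX5, PRDX6 and CAT, replicate 3 was highest and replicate 2 lowest in both conditions. These were 8 of the 39 tested genes (20.5%), against 6.57% of all genes, a pattern noticed in the data and then counted. PRDX3, the mitochondrial peroxiredoxin, was at 125, 90.6 and 165 CPM without Dox and 108, 85.2 and 185 with Dox. MGST1 was at 104, 73.5 and 153 CPM without Dox and 105, 61.8 and 128 with Dox. Depth ran the same way, since replicate 3 had the most counts (5988151 and 7271771) and replicate 2 the fewest (3394672 and 3460471) in both conditions, and its part in the pattern was not tested.

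**Figure D4:**
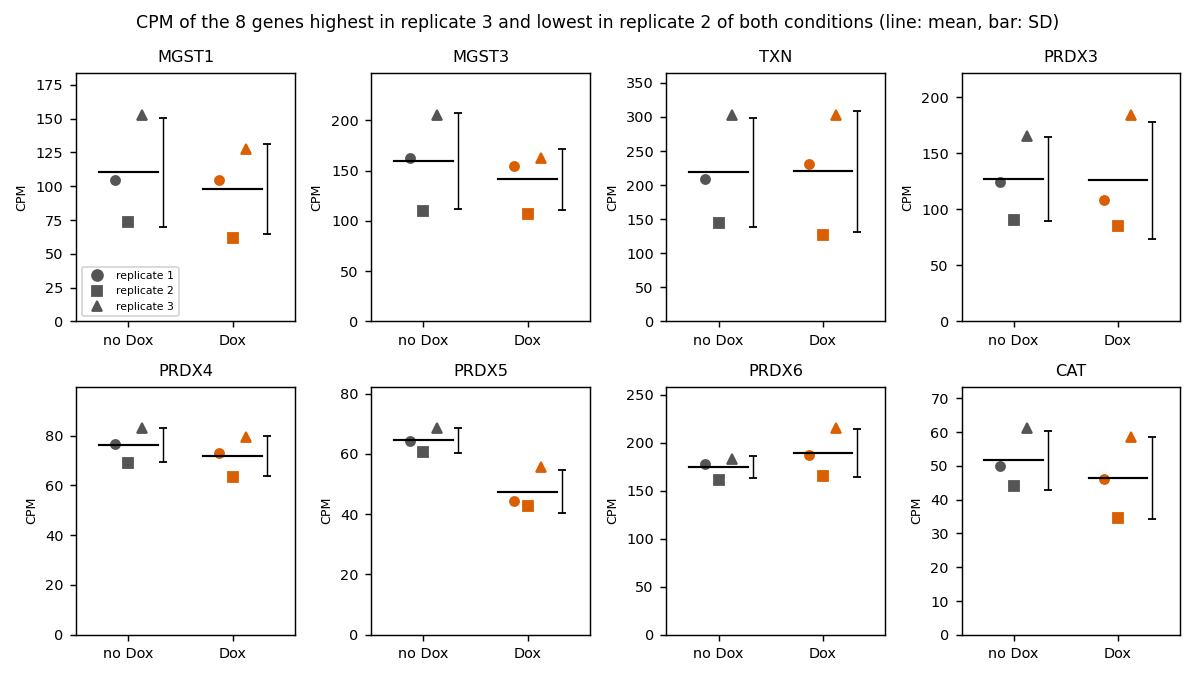
CPM in each library (y axis from 0) of the 8 genes in which replicate 3 (triangles) is highest and replicate 2 (squares) lowest in both conditions, without Dox (grey) and with Dox (orange), with lines for means and bars for the SD of 3 replicates. For TXN, replicate 3 stands at 303 CPM in either condition.

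A list of 78 further genes of the same pathways served as a comparison, and 66 of them were tested. Of these, 10 rose and 13 fell (edgeR, adjusted p under 0.05), or 15.2% and 19.7% of those tested, against 11.9% and 13.7% of all genes, with a median log2 fold change of -0.02. The largest rises were those of CHAC1, which degrades glutathione, with 1.23 ± 0.34 (SE), GGT7, of the gamma-glutamyltransferase family, with 0.84 ± 0.21 (SE), and LANCL1, a glutathione-binding protein, with 0.79 ± 0.16 (SE). CHAC1 rested on few counts, 11, 6 and 18 without Dox and 23, 23 and 57 with Dox. It lost its call in DESeq2 and when replicate 2 without Dox or replicate 3 with Dox was left out. The largest falls were those of AKR1C3, the aldo-keto reductase that makes testosterone, with -1.67 ± 0.18 (SE), NFE2L3, a relative of NRF2, with -1.0 ± 0.27 (SE), and IDH1, a cytosolic source of NADPH, with -0.82 ± 0.12 (SE). AKR1C3 went from 69.2, 45.3 and 54.6 CPM without Dox to 15.9, 15.9 and 20.6 with Dox, and it too resembles AKR1C1 and AKR1C2. NFE2L3 was at -0.92 without replicate 3 of the cells without Dox and lost its call there (edgeR adjusted p = 0.0551).

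By role, 1 of 8 tested genes of the NRF2 circuit was called, NFE2L3, and SQSTM1, CUL3 and NFE2L1 were among those that were not. Of 23 other NRF2 targets and NADPH genes, 3 rose and 6 fell. The 3 rises were FTL, the ferritin light chain (0.66), SLC7A11, the cystine importer that supplies glutathione synthesis (0.55), and NNT, the mitochondrial transhydrogenase (0.47), which were named after their values were seen. Among the 6 falls, also named in that way, were TKT (-0.49) and PGD (-0.43) of the pentose phosphate pathway. NNT kept its call with replicate 3 with Dox left out and lost it with any other library left out and in DESeq2. SLC7A11 lost its call without replicate 1 or 2 without Dox or replicate 1 with Dox. PGD lost its call without replicate 2 without Dox, without replicate 1 with Dox and under library totals alone, and TKT lost it without either of the same libraries. Of 16 other glutathione genes 3 rose and 3 fell (18.8% each), and of 15 other thioredoxin-fold and repair genes 3 rose and 3 fell (20% each). Of 4 genes of selenocysteine insertion, on which GPX4 and the thioredoxin reductases depend, SEPHS2 rose (0.45 ± 0.12, SE, edgeR adjusted p = 0.0115) and the other 3 did not pass. SEPHS2 lost its call without replicate 1 or 2 without Dox or replicate 1 with Dox.

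**Figure D5:**
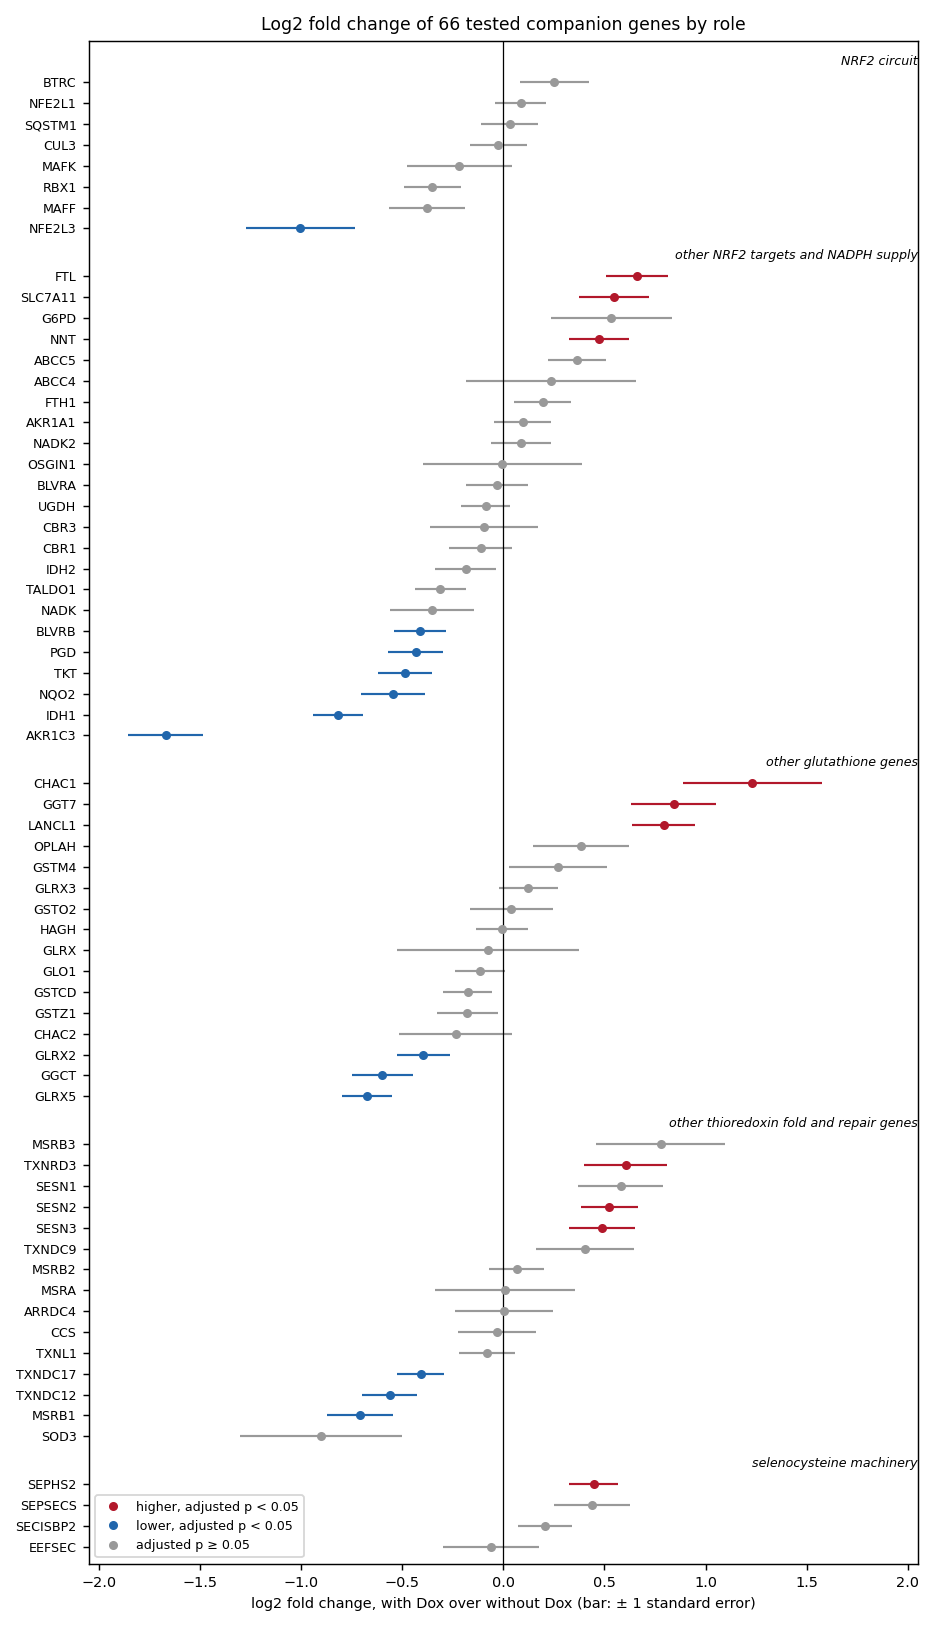
Log2 fold change with Dox over without Dox (x axis) of the 66 tested further genes of these pathways, grouped by role, with bars of 1 standard error. Red and blue points are the 10 rises and 13 falls at an adjusted p under 0.05 (edgeR), and the largest change is the fall of AKR1C3, at -1.67.

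The sources used here do not say if strand entered the counting. Of the 14 genes called, AIFM2, BACH1, GCLC, MGST2 and NQO1 share exon bases with a gene on the opposite strand in GENCODE 44, and SRXN1, BACH1 and GCLC with one on the same strand, so their counts could hold or lack reads of these neighbours.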

How the data were processed

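The 6 libraries, 3 for each condition, were made by 3ʹ mRNA sequencing. The authors demultiplexed single-end reads with CASAVA 1.8.2, aligned them with STAR (hg38) and deposited, for each gene symbol, raw counts. HTSeq is named in the submitters' processing notes. The kit is called REV in the study's methods but FWD in the sample labels. The deposited files of single libraries hold a normalized signal, scaled to nearly equal totals by a method not given in the sources used here, and served as an alternative, in which 19 tested symbols did not match. The 5 rows that name no gene were left out of totals and tests. They held 32.5% to 39.5% (no gene) and 3.05% to 3.37% (ambiguous) of the reads listed.

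Counts were tested with edgeR 4.0.16 in R 4.3.3 (quasi-likelihood test after TMM and filterByExpr, with Benjamini-Hochberg adjustment over 12233 genes and a threshold of 0.05). The standard error is the log2 fold change divided by the square root of F. On simulated counts of 12117 genes, the test called 80% of the genes set to 2-fold and 99.0% of those set to 4-fold, and 8.33% of its calls were false. In that simulation 197 genes were changed, all by 2-fold or 4-fold, while 25.5% of the real genes were called. These rates therefore need not hold for the calls here, least of all for smaller changes. Each gene of the list is accounted for: genes that passed the threshold, and 12 that the roles turn on, are given in every library. From the further genes, the 3 largest called changes in each direction are named, and every called one of a role with 5 or fewer. The called genes FTL, SLC7A11, NNT, TKT and PGD were named outside this rule, after their values were seen. Members and lists were chosen with earlier results of these data known. Alternatives were RLE and upper-quartile factors, library totals alone, 2 other filters, DESeq2 1.42.0, limma 3.58.1 on log2(signal + 1), a block for the replicate number, and fits that left out 1 library at a time. One count is 0.131 to 0.310 CPM after TMM, and 3 counts were taken as the limit of detection, which covers counting error only, as reads carry no molecular identifiers. Replicates differed by more than sampling noise (chi-square over its degrees of freedom, 4.07 to 11.3 for pairs within a condition). Coordinates are those of GENCODE 44 on hg38. Protein sequences were not used here.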

Additional observations from a re-analysis of the deposited data

How the results depend on the processing

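The 14 genes called kept their direction in every one of the 14 alternative fits in which they were tested, and 6 of them (BACH1, GCLM, GSTA4, GSTK1, SRXN1 and HMOX1) kept their call in each. Library totals alone left 7 of these genes higher and 4 lower, against 7 and 7, and gave 2179 genes higher and 1136 lower over all genes, against 1451 and 1674. It also left 14 further pathway genes higher and 8 lower, against 10 and 13, and its median shift of 0.12 on the log2 scale runs with these counts. DESeq2 called 6 further pathway genes higher, and the cause was not tested. With each library left out in turn, which leaves fewer samples, 953 (without replicate 1 without Dox) to 1459 genes were higher over all genes. Of the 45 genes, 4 (without replicate 1 or 2 without Dox) to 7 were higher. Of the further pathway genes, 5 (without replicate 1 or 2 without Dox or replicate 1 with Dox) to 9 were higher and 7 (without replicate 1 with Dox) to 14 lower.

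In 13 genes without a call the sign of the log2 fold change turned in at least 1 fit, none of them past the threshold. Scaling turned GSS (0.010 with upper-quartile factors, 0.078 with library totals alone), PRDX3 (0.050 and 0.12), TXNRD1 (0.019, library totals alone) and PRDX4 (0.037, library totals alone). TXN turned to -0.0029 without a filter, to -0.0057 with the replicate block and to -0.0071 with the deposited normalized values, where TXNRD2 was at -0.0074. PRDX3 was at 0.018 with at least 10 counts in every library.
With 1 library left out the log2 fold change ran from -0.10 to 0.30 for MAFG, -0.15 to 0.046 for GSS, -0.41 to 0.15 for MGST1, -0.39 to 0.053 for MGST3, -0.29 to 0.32 for TXN, -0.089 to 0.082 for TXN2, -0.28 to 0.27 for TXNRD2, -0.071 to 0.19 for PRDX2, -0.40 to 0.23 for PRDX3, -0.012 to 0.19 for SOD2 and -0.36 to 0.013 for CAT.

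Replicate numbers were not used for pairing in the main test, since the sample labels give no batch. After the mean of each condition was removed, the libraries that share a number had r over genes of -0.01 (replicate 1), 0.25 (replicate 2) and 0.09 (replicate 3). With the replicate block, 3537 genes were called over all genes against 3125, and of the 45 genes 7 rose and 8 fell, the 14 called without the block and ABCC2. Of the 6 libraries, 2 correlated best with their own number among the 3 of the other condition. Matching at random would give as many on average, so this count does not show a pairing. Depth limits AIFM2, AKR1C1, AKR1C2, GPX3 and, of the further genes, CHAC1, which rest on few counts.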
